A study of Mus musculus with 54 samples.

Results

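Acod1 makes itaconate from the citrate cycle intermediate cis-aconitate, and it was followed here beside 8 enzymes of the citrate cycle: Cs, Idh1, Idh2, Idh3a, Ogdh, Suclg1, Fh1 and Mdh2. The 9 genes were chosen by symbol, out of 39179 gene identifiers in the count tables, and all 9 passed the filter on low counts in both experiments. The cells were thioglycolate-elicited peritoneal exudate cells of C57BL/6 mice aged 8 to 20 weeks, of which the adherent fraction, called macrophages, was cultured. M1-like macrophages had received LPS at 100 ng/ml with IFN-γ at 50 ng/ml, M2-like macrophages IL-4 at 10 ng/ml, and M0 macrophages neither. In the polarization experiment, M0, M1-like and M2-like cells of 3 mice were sequenced after 24 h, each in a pair of technical runs with single reads of 50 bases. In the reprogramming experiment, 12 conditions had 3 replicates each, sequenced with paired reads of 150 bases. They held M0, M1-like and M2-like macrophages, either untransfected or treated with the transfection reagent alone (mock), and M2-like macrophages transfected with a negative siRNA pool, with an siRNA pool against E2f1, Myc, Pparg or Stat6, or with the combined pool against all 4 factors. The last are called iM1. The methods name Dharmacon as the source of the siRNAs against Myc and siTools Biotech for those against E2f1, Pparg and Stat6. They do not name the source of the negative pool. Transfection followed 24 h of polarization, IL-4 was absent afterwards, and the transfected cells were harvested 48 h later. The methods put cells without transfection at 24 h of polarization, without saying whether this covers the untransfected samples of the reprogramming experiment. The labels do not say whether the replicates of the reprogramming experiment came from separate mice or cultures. For RNA extraction, under a heading shared with quantitative PCR, the methods give n = 3 biological replicates, with M0, M1-like, M2-like and iM1 cells named. They do not tie these to the sequenced samples of the reprogramming experiment. The p-values of that experiment measure the spread between these samples, which may not be that between mice. Chi-square per gene, near 1 for sampling noise alone, was 4.48 to 23.0 between these replicates. In the polarization experiment it was 1.07 to 1.10 between technical runs of 1 mouse and 3.64 to 52.1 between mice.

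The citrate cycle oxidises acetyl groups in the mitochondrial matrix and passes the electrons to the respiratory chain. In macrophages stimulated with LPS the cycle is known to be interrupted at isocitrate dehydrogenase and at succinate dehydrogenase, so that citrate and succinate accumulate. Acod1, also called Irg1, is induced by LPS and interferons and draws cis-aconitate off the cycle as itaconate, which inhibits succinate dehydrogenase and is antibacterial.

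Acod1 lies on chr14:103046977-103056573 (+ strand, mm10, a protein-coding gene that overlaps no other annotated gene). RefSeq promoter windows, 250 bases before to 50 bases after a start on GRCm38.p6, were at hand for 8 of the 9 genes, in 14 windows. They were searched on both strands for the E-box CACGTG of Myc-type factors, the E2F forms TTTCCCGC and TTTGGCGC, the STAT form TTCNNNGAA and the same with a gap of 4 bases, the PPAR repeat of AGGTCA after a gap of 1 base, the interferon repeat of GAAA after a gap of 2 bases, and the NF-kB forms GGAANTTCC and GGG followed, after 5 bases, by CC. GGAANTTCC was added after the Acod1 window had been seen. The 3 windows below are shown because they belong to Acod1 and to the 2 cycle enzymes with a match to a motif of the silenced factors' families, and capitals mark matches to motifs found in fewer than 10% of 32851 such windows.
Acod1, chr14:103046762-103047061, + strand: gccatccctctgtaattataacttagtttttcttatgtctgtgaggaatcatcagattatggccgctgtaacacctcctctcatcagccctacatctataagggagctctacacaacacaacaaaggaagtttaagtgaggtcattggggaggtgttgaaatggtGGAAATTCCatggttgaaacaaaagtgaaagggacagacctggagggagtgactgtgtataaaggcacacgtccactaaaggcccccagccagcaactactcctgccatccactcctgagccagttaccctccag
Fh1, chr1:175625586-175625885, - strand: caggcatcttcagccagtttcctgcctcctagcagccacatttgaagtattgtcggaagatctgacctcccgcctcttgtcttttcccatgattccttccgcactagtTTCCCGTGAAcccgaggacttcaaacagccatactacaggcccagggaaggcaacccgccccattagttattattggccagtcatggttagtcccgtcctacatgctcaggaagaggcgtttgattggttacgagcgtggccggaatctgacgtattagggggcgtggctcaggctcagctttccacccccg
Ogdh, chr11:6291920-6292219, + strand: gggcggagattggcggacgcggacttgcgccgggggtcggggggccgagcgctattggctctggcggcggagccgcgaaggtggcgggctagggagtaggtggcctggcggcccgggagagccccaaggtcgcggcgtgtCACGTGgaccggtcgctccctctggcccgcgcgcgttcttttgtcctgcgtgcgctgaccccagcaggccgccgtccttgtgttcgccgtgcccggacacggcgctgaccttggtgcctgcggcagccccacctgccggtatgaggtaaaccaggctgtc
In the Acod1 window the capitals are GGAAATTCC, whose first base lies at -85 from the start; GGAANTTCC is held by 0.928% of all windows. No E-box, E2F, STAT, PPAR or interferon motif of the forms searched was found in these 300 letters, and the looser NF-kB form, which matched once at -55, is held by 50.8% of windows. The Fh1 window holds TTCCCGTGAA at -142, a STAT form in 6.95% of windows. The Ogdh window shown, 1 of several with different starts, holds CACGTG at -110, a motif in 7.15% of windows. Other Ogdh windows hold it at -141 or -162 from their starts, or lack it. Of all windows, 1.07% and 0.514% hold the E2F forms, 8.30% the shorter STAT form, 0.0396% the PPAR repeat and 3.44% the interferon repeat. Matches of these letters are a description of the sequence only.

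Depth was 39577911 to 59443987 counts for a mouse and condition in the polarization experiment, with both runs summed, and 13421854 to 19704195 counts for a library in the reprogramming experiment. Fh1 overlaps Kmo on the opposite strand and Cs overlaps the snoRNA gene Gm23182, which held 214 and 14 counts over all libraries. The technical runs of 1 mouse differed by about the sampling noise and were counted as 1 sample. Against the mean of the negative siRNA pool, each silenced gene stood at 19.2% to 44.2% under its own pool and at 25.7% to 62.8% in iM1. Macrophage markers (Adgre1, Csf1r, Cd68, Itgam, Lyz2, Mertk) summed to 6162 to 18252 CPM, which are counts scaled to the TMM-adjusted library size, in every library, and the T cell list at most 1.5. Lyz2 was the largest part of the macrophage sum, at 5802 to 12787 CPM in the polarization and 3580 to 13739 CPM in the reprogramming libraries. The 5 fibroblast and mesothelium markers summed to 7.16 to 19.2 CPM in the polarization libraries and reached 256 CPM in the reprogramming libraries.

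At 24 h, Acod1 was the gene with the widest range among the 9. It was at 6.08, 4.87 and 5.92 CPM in the M0 cells of the 3 mice, at 6.99, 4.52 and 5.26 CPM in M2-like cells, and at 5879, 5701 and 5699 CPM in M1-like cells. The M1-like values stood far above those of the other cells, whose ranges overlapped. Acod1 rose 1024-fold in M1-like against M0 macrophages (95% interval of the log2 fold change 9.61 to 10.39, SE 0.18, n = 3 mice, adjusted p = 4.96e-13, edgeR quasi-likelihood test). In M2-like against M0 cells the log2 difference was -0.02, with a 95% interval of -0.31 to 0.28 (adjusted p = 0.95). These are bulk samples, in which fewer cells of a type and less RNA per cell cannot be told apart.

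**Figure D1:**
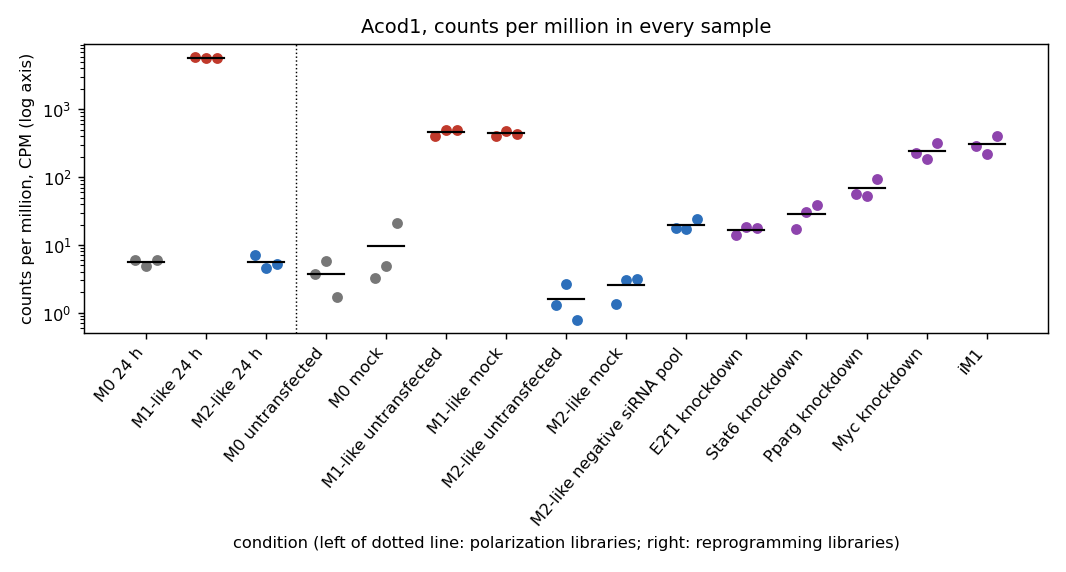
Acod1 in CPM on a log axis, for every sample of the 15 conditions; points are mice (left of the dotted line) or replicates (right), and bars are the means of 3. M1-like samples are highest in both experiments, and the Myc knockdown and iM1 samples lie between 182 and 403 CPM.

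The largest falls among the 8 enzymes were those of the NADP-dependent isocitrate dehydrogenases. Idh1, the cytosolic enzyme, was at 281, 273 and 275 CPM in M0, at 305, 281 and 267 CPM in M2-like and at 27.6, 27.3 and 31.4 CPM in M1-like cells. The M1-like values did not overlap the rest, and the fall against M0 was 9.61-fold (log2 -3.26 ± 0.08 SE, adjusted p = 3.72e-12). Idh2, its mitochondrial counterpart, stood at 52.5, 51.6 and 50.4 CPM in M0 and at 8.05, 10.3 and 10.9 CPM in M1-like cells. Idh2 thus fell 5.26-fold, by 2.40 on the log2 scale (SE 0.12, adjusted p = 2.95e-09), and in M2-like cells it overlapped M0 at 44.9, 53.0 and 59.4 CPM.

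The remaining enzymes moved less at 24 h. Ogdh, the E1 subunit of the 2-oxoglutarate dehydrogenase complex, fell to 60.3% of M0 in M1-like cells (135, 135 and 129 against 225, 221 and 214 CPM). Fh1, fumarate hydratase, fell to 66.0% of M0 (19.3, 23.1 and 21.3 against 32.3, 32.3 and 31.8 CPM). Idh3a, the catalytic alpha subunit of the NAD-dependent isocitrate dehydrogenase, fell by 0.25 on the log2 scale, a call that was lost without mouse 3 of the M1-like cells (-0.19, adjusted p = 0.0528). Mdh2, mitochondrial malate dehydrogenase, rose 1.54-fold (167, 167 and 168 against 106, 111 and 109 CPM), and Cs, citrate synthase, 1.12-fold. Suclg1, the alpha subunit of succinyl-CoA ligase, was 1.07-fold of M0 (interval of the log2 difference -0.02 to 0.21, adjusted p = 0.108), and it was called higher by DESeq2 (0.13, adjusted p = 0.0458) and with DESeq2's size factors (0.13). So 2 of the 8 enzymes rose and 5 fell in M1-like against M0 cells, where 35.4% of all 16110 genes tested rose and 37.5% fell, and the median log2 fold change of the 8 was -0.43 against -0.04 over all genes.

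In M2-like against M0 cells, 5 of the 8 rose and 0 fell, beside 13.5% and 14.4% of all genes. Idh3a rose 1.44-fold, Fh1 1.35-fold, Mdh2 1.35-fold, Suclg1 1.24-fold and Cs 1.13-fold; the call for Cs was lost with no filter (adjusted p = 0.0509) and when any M0 sample or M2-like mouse 2 was left out (adjusted p up to 0.0801). Fh1 and Idh3a were accordingly lowest in M1-like and highest in M2-like cells, with no overlap between any of the 3 groups. In the direct comparison of M1-like with M2-like cells, Mdh2 rose and 6 of the 8 fell, beside 34.6% and 38.1% of all genes, and Cs differed by -0.01 (interval -0.12 to 0.10).

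**Figure D2:**
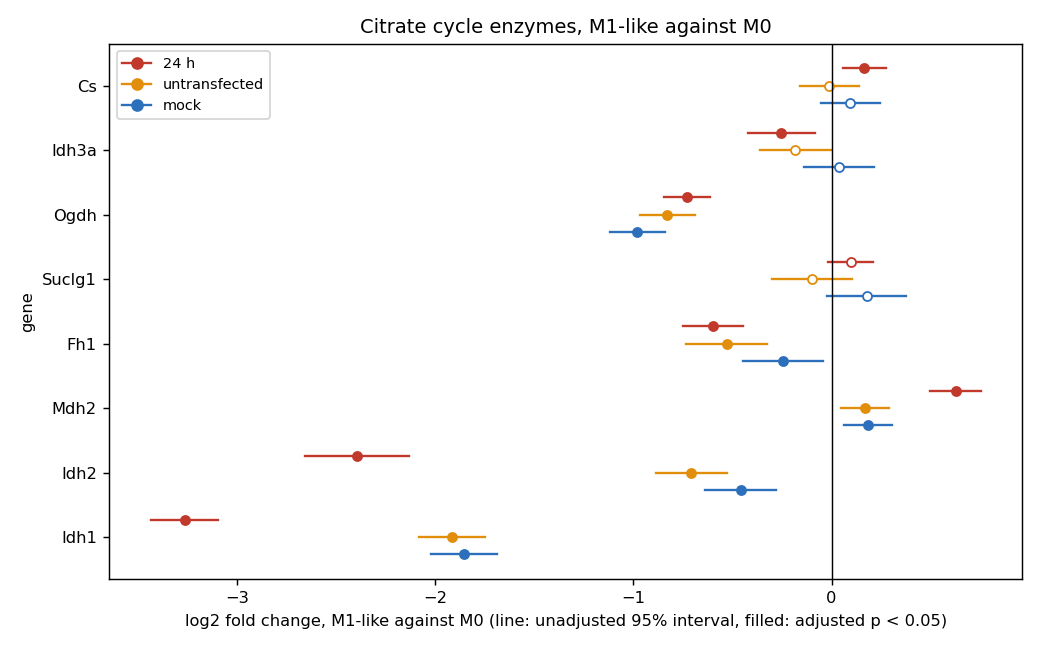
Log2 fold change of the 8 citrate cycle enzymes, M1-like against M0, in the 24 h, untransfected and mock samples; points are edgeR estimates, lines unadjusted 95% intervals, and filled points passed an adjusted p of 0.05. Idh1 lies at -3.26, -1.92 and -1.85, while Suclg1 has open points in all 3 comparisons.

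The wider citrate cycle list held 23 genes, of which 22 could be tested at 24 h. In M1-like against M0 cells 8 rose and 10 fell (median log2 fold change 0.04), beside 35.4% and 37.5% of all genes. Suclg2, the GTP-forming beta subunit of succinyl-CoA ligase, fell by 1.99 on the log2 scale, and Mdh1, the cytosolic malate dehydrogenase, by 0.83. Pcx, pyruvate carboxylase, rose by 2.36, and Sdhd, a membrane anchor of succinate dehydrogenase, by 0.76. In M2-like against M0 cells 14 rose and 1, Suclg2, fell (-0.53), beside 13.5% and 14.4% of all genes; without M0 mouse 2 the counts were 8 and 0, and without M0 mouse 3 the list had 9 rising genes. Summed macrophage markers at 24 h were 16063 to 17334 CPM in M0, 10129 to 11072 in M1-like and 12675 to 13007 in M2-like cells. The eosinophil list was carried by Siglecf alone, as its other genes (Prg2, Epx, Ear6) reached at most 0.0695 CPM at 24 h. That list was at 0.208 to 0.792 CPM in M1-like against 15.5 to 16.8 CPM in M0 cells. The part of both lists in these differences was not tested.

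Of the genes that link the cycle to the cytosol, 6 of 11 tested rose and 3 fell in M1-like against M0 cells at 24 h (median 0.27), beside 35.4% and 37.5% of all genes. The carriers and enzymes that rose included Slc25a12, the aspartate-glutamate carrier, by 1.24 on the log2 scale, Me2, mitochondrial malic enzyme, by 1.46, and Slc25a1, the citrate carrier, by 0.54. Slc25a13, the other aspartate-glutamate carrier, fell by 1.58, and Acly, which splits exported citrate, by 0.14. Of the itaconate handling genes, 4 of 6 could be tested. Clybl, which degrades the itaconate-derived citramalyl-CoA, rose by 0.94, and Abcg2, an exporter, fell from 9.82, 9.81 and 10.6 CPM to 1.73, 2.32 and 1.37 CPM.

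In the reprogramming experiment the M1-like samples again had the highest Acod1, at a lower level. Acod1 was at 409, 497 and 496 CPM in untransfected M1-like, at 3.73, 5.71 and 1.71 CPM in untransfected M0 and at 1.29, 2.64 and 0.794 CPM in untransfected M2-like macrophages. It rose 124-fold in M1-like against M0 (log2 6.95 ± 0.45 SE, n = 3, adjusted p = 1.27e-14) and 293-fold against M2-like cells. After mock transfection it was at 411, 481 and 438 CPM in M1-like, at 3.29, 4.84 and 20.8 CPM in M0 and at 1.34, 3.08 and 3.14 CPM in M2-like cells. Replicate 3 of the M0 mock samples stood above the other M0 mock samples. The rise in M1-like against M0 mock was 46.3-fold (log2 5.53), and 6.74 on the log2 scale without that sample. Acod1 also fell by 1.94 in M2-like against M0 mock (adjusted p = 0.0384), but by 0.73 without M0 replicate 3 (adjusted p = 0.511), and leaving out any of the 3 M2-like mock samples ended the call as well (adjusted p 0.0550 to 0.189).

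Idh1 was again lowest in the M1-like samples of the reprogramming experiment. It was at 96.5, 85.3 and 80.4 CPM in untransfected M1-like, at 316, 352 and 321 CPM in M0 and at 436, 427 and 467 CPM in M2-like macrophages, with no overlap between the 3 groups. Idh1 fell 3.77-fold in M1-like against M0 (log2 -1.92 ± 0.08 SE, adjusted p = 3.66e-19) and rose 1.34-fold in M2-like against M0 (adjusted p = 0.00016). Idh2 fell to 61.3% of M0 in M1-like cells (49.0, 34.3 and 41.9 against 66.8, 72.7 and 65.0 CPM). Ogdh fell to 56.3% and Fh1 to 69.3% of M0, and Mdh2 rose 1.12-fold, though not without M0 replicate 2 (0.14, adjusted p = 0.0842) or M1-like replicate 3 (0.10, adjusted p = 0.187). Cs, Idh3a and Suclg1 were at log2 differences of -0.01, -0.18 and -0.10, and Idh3a was called lower without M1-like replicate 3 (-0.26). That made 1 of 8 enzymes higher and 4 lower, beside 29% and 28.7% of all 14172 genes tested (median -0.36 for the 8, 0.01 for all).

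The mock-treated samples gave the same counts for M1-like against M0, 1 higher and 4 lower, beside 30.3% and 30% of all genes. Idh1 fell by 1.85, Ogdh by 0.98, Idh2 by 0.46 and Fh1 by 0.24 on the log2 scale, and Mdh2 rose by 0.18. The Fh1 call was lost without M0 replicate 1 (-0.19) or 3 (-0.24) and without M1-like replicate 1 (-0.26) or 2 (-0.19), and the Mdh2 call without M1-like replicate 3 (0.14). Without M1-like replicate 2, Suclg1 was called higher (0.26). The rises of Mdh2 in M1-like cells of the reprogramming experiment, by 0.17 to 0.19, were also lost with no filter (adjusted p 0.0798 to 0.139) and with only the compared groups (adjusted p 0.0956 to 0.152). Against M2-like cells, Mdh2 was the 1 of 8 that rose in untransfected M1-like cells, without M1-like replicate 3 by 0.12 and no longer called, and Idh1, Idh2, Ogdh and Fh1 fell, beside 31.3% and 30.2% of all genes; in mock cells those 4 again fell and 0 rose, beside 29.8% and 30.9%. Without mock M1-like replicate 2, Suclg1 (0.30) and Mdh2 (0.16) were called higher there, and without replicate 1 Mdh2 was (0.16). The change of M1-like against M2-like cells was compared between mock and untransfected samples in 1 model, and 0 of the 9 genes differed by edgeR or by DESeq2, with 1 at an unadjusted p under 0.05, beside 0.0353% of genes higher and 1.09% lower. The log2 difference of the changes was -0.72 for Acod1 (interval -2.39 to 0.94) and 0.20 for Idh1 (interval -0.03 to 0.43).

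**Figure D3:**
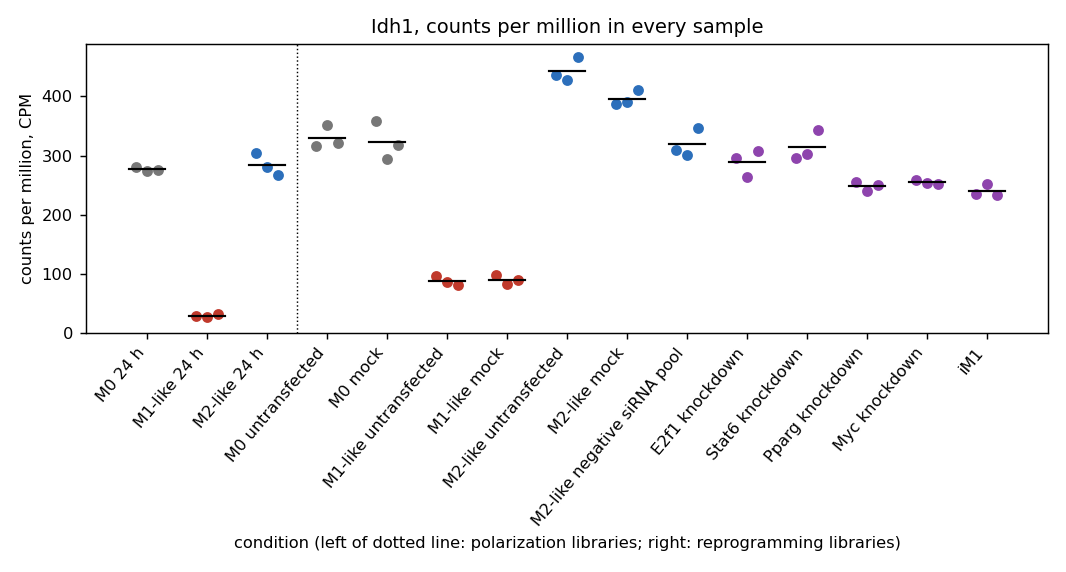
Idh1 in CPM for every sample of the 15 conditions; points are mice (left of the dotted line) or replicates (right), and bars are the means of 3. M1-like samples lie between 27.3 and 97.1 CPM, and every other sample is at 233 CPM or above.

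Between untransfected M2-like and M0 macrophages of the reprogramming experiment, Idh1 rose and Idh2 fell, and 6 of the 8 passed in neither direction, beside 10.7% of genes higher and 9.19% lower. The fall of Idh2, by 0.24, was lost whichever of the 6 libraries was left out (adjusted p 0.0536 to 0.172), and also with no filter or with DESeq2's size factors. In mock samples Idh1 rose by 0.29 and 0 fell, beside 2.19% and 1.64% of genes. That call for Idh1 stood only while M0 replicate 1 was left out or all 6 libraries were kept (0.23 to 0.31 and adjusted p 0.0677 to 0.205 in the other 5 fits), and it was lost with only the compared groups (adjusted p = 0.233). The rises of Idh3a, Fh1, Mdh2, Suclg1 and Cs seen at 24 h had log2 values between -0.05 and 0.08 in the untransfected samples.

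Of the 23 genes of the citrate cycle list, 4 rose and 8 fell in untransfected M1-like against M0 cells (median -0.12), beside 29% and 28.7% of all genes. After mock treatment 4 rose and 9 fell (median -0.07), beside 30.3% and 30% of all genes, and 2 rose with no filter or with only the compared groups. Sdhd rose by 0.72 and Dlst, the E2 subunit of the 2-oxoglutarate dehydrogenase complex, by 0.27, as at 24 h (0.76 and 0.36). Pcx had the opposite sign to that at 24 h: it was at 1.22, 0.937 and 0.883 CPM in untransfected M1-like and at 3.29, 1.99 and 2.59 CPM in M0 cells, a fall by 1.35, whereas at 24 h it was at 10.8, 9.25 and 8.01 against 1.92, 1.88 and 1.65 CPM. Me1, cytosolic malic enzyme, did likewise, with a fall by 1.91 in the untransfected samples and a rise by 1.41 at 24 h. Of the 11 linking genes tested, 1 rose and 7 fell (median -0.27), beside the same 29% and 28.7%, and Abcg2 fell by 0.63. In untransfected M2-like against M0 cells 2 of the 23 rose and 1, Idh2, fell, beside 10.7% and 9.19% of all genes. With any 1 library left out 0 fell, and the rising genes numbered 1 without M0 replicate 1 or M2-like replicate 3. The fibroblast and mesothelium list summed to 20.1 to 63.4 CPM in untransfected M1-like against 71.7 to 149 CPM in M0 cells, and to 11.4 to 24.8 against 105 to 170 CPM after mock treatment, and the macrophage list to 6600 to 7738 against 16398 to 16745 CPM in untransfected cells. Their part in these results was not tested. The experiments differed in read length and sequencing site at once, and possibly in time, which cannot be told apart.

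**Figure D4:**
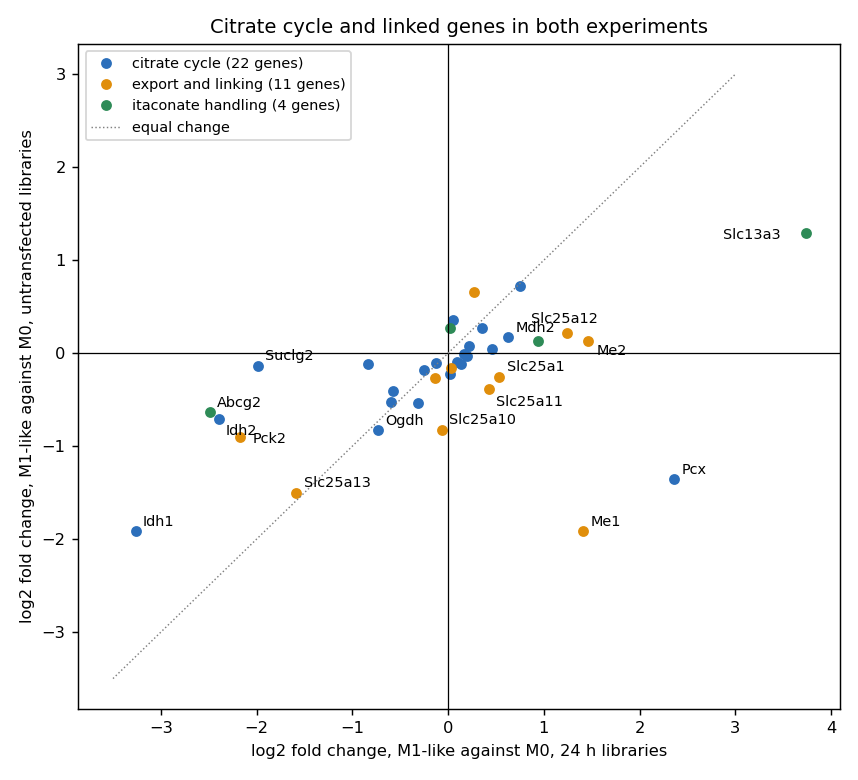
Log2 fold change of M1-like against M0 for the genes of 3 lists that could be tested in both experiments, with the 24 h samples on the horizontal and the untransfected samples on the vertical axis; each point is 1 gene and the dotted line marks equal change. Idh1 is at -3.26 and -1.92, and Pcx and Me1 lie below 0 on the vertical and above 0 on the horizontal axis.

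The transfection reagent alone moved few of the 9 genes. In M0 cells Idh2 fell to 79.7% of untransfected (55.4, 53.2 and 54.4 against 66.8, 72.7 and 65.0 CPM, adjusted p = 0.0061), beside 8.66% of genes lower and 11.7% higher; without untransfected replicate 2 its adjusted p was 0.0511. Acod1 was 2.54-fold in M0 mock against untransfected (interval of the log2 difference 0.32 to 2.38, adjusted p = 0.0561), and its log2 difference was 0.14 without mock replicate 3. Leaving out mock replicate 1 (1.73) or 2 (1.70) or untransfected replicate 2 (1.83) gave a call. In M1-like cells 0 of 14172 genes passed in edgeR, with 438 at an unadjusted p under 0.05, and 0 passed in DESeq2. Acod1 differed there by -0.08 (interval -0.71 to 0.56). In M2-like cells 0 of the 9 passed in edgeR or DESeq2, with 1 at an unadjusted p under 0.05, beside 1.67% of genes higher and 0.0988% lower, and Acod1 differed by 0.65 (interval -0.89 to 2.19).

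The negative siRNA pool, which targets none of the 4 factors, changed Acod1 in M2-like cells. It was at 18, 17.3 and 24 CPM with the pool and at 1.34, 3.08 and 3.14 CPM in mock samples. This was a 7.92-fold rise (log2 2.99 ± 0.50 SE, n = 3, adjusted p = 8.94e-05), in a comparison where 6.67% of genes rose and 5.03% fell. Of the 8 enzymes 0 rose, and Idh1 fell by 0.31 (309, 301 and 346 against 388, 390 and 411 CPM) and Ogdh by 0.30 (194, 191 and 184 against 235, 217 and 250 CPM). The Idh1 call was lost without pool replicate 2 (-0.27, adjusted p = 0.0510). The eosinophil list was carried by Siglecf alone, as its other genes reached at most 0.141 CPM in any reprogramming library. That list was at 33.4 to 38.7 CPM with the pool and 18.7 to 19.8 CPM in mock samples. The fibroblast and mesothelium list was at 157 to 230 against 90.3 to 153 CPM, and the macrophage list at 12202 to 13189 against 14555 to 15901 CPM. Mitochondrial genes took 1.08% to 1.10% of counts with the pool and 1.32% to 1.57% in mock samples. The part of these in the changes was not tested. On the 23-gene list Aco1, cytosolic aconitase, also fell, by 0.23, and 0 rose; without pool replicate 2 the falling genes numbered 1. The knockdowns were compared with the negative siRNA pool, and for the 9 genes values against M2-like mock samples are given where the reference changed a call. The 5 knockdown comparisons share the 3 samples of the negative pool.

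Against the negative siRNA pool, Acod1 rose in the Myc and Pparg knockdowns and in iM1. It was at 224, 182 and 317 CPM under the Myc pool, at 56.3, 53.5 and 94.5 CPM under the Pparg pool and at 288, 220 and 403 CPM in iM1, against 18, 17.3 and 24 CPM. All these samples lay above those of the negative pool, and the Myc and iM1 ranges overlapped. The rise was 12.1-fold for Myc (log2 3.60 ± 0.36 SE, adjusted p = 7.13e-09), 3.43-fold for Pparg (log2 1.78 ± 0.36 SE, adjusted p = 0.0016) and 15.3-fold for iM1 (log2 3.94 ± 0.37 SE, adjusted p = 1.71e-09). The shares of all genes that rose were 13.9%, 2.71% and 12.5%. The Myc knockdown and iM1 were not compared with each other by a test. Both received the siRNAs against Myc, which came from another supplier than those against the other factors. In the Myc knockdown, target and supplier cannot be told apart.

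Under the E2f1 pool Acod1 was at 13.8, 18.5 and 17.6 CPM, and under the Stat6 pool at 17.4, 30.1 and 38.3 CPM. Both ranges overlapped that of the negative pool. The log2 differences were -0.25 for E2f1 (interval -1.02 to 0.52) and 0.53 for Stat6 (interval -0.22 to 1.27), with adjusted p = 0.894 and 0.624. The all-gene shares in these comparisons were small, with 0.261% of genes higher and 0.649% lower for E2f1 and 0.466% and 1.04% for Stat6. With the replicate block the E2f1 comparison called 70 genes higher and 166 lower, instead of 37 and 92. Against M2-like mock samples, the log2 fold change of Acod1 was 2.74 for E2f1 (adjusted p = 0.00033), 3.51 for Stat6, 4.76 for Pparg, 6.59 for Myc and 6.92 for iM1.

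Idh1 fell in 3 of the 5 comparisons with the negative pool. It was at 235, 251 and 233 CPM in iM1 against 309, 301 and 346 CPM under the negative pool, with no overlap, a fall to 75.2% (log2 -0.41 ± 0.08 SE, adjusted p = 0.000188). Idh1 fell to 79.8% under the Myc pool (adjusted p = 0.00208) and to 77.7% under the Pparg pool (adjusted p = 0.00381), the latter not without negative pool replicate 3 (-0.30, adjusted p = 0.0533). Under the E2f1 and Stat6 pools its log2 differences were -0.14 (interval -0.30 to 0.02) and -0.02 (interval -0.18 to 0.14). Idh2 fell in iM1 to 82.2% of the negative pool, at 47.1, 51.1 and 51.1 against 60.4, 60.9 and 60.4 CPM; without iM1 replicate 1 its adjusted p was 0.0743, and against M2-like mock it was not called (-0.20, adjusted p = 0.0668). With M2-like mock as the reference, Idh1 also fell under the E2f1 pool (-0.46) and the Stat6 pool (-0.34). Ogdh differed from the negative pool by 0.09 in iM1 (interval -0.04 to 0.23) and by 0.06 under the Myc pool, but against mock it fell by 0.21 and by 0.25. Mdh2 differed in iM1 by 0.14 from the negative pool (adjusted p = 0.0756) and rose by 0.20 against mock (adjusted p = 0.00833). Mdh2 rose 1.13-fold under the Myc pool (adjusted p = 0.0218), a call lost in 4 of 6 fits with 1 library left out, those without Myc pool or negative pool replicate 1 or 2 (0.17 to 0.18, adjusted p up to 0.0650), and with no filter (adjusted p = 0.133). With the replicate number as a block, which every same-number pair of these groups allowed (r above 0.1), Mdh2 was called higher in iM1 (0.14, adjusted p = 0.0385), Idh2 lower under the Myc pool (-0.22, adjusted p = 0.0439) and Idh3a higher under the Pparg pool (0.25, adjusted p = 0.0287). With only the compared groups, Idh2 was called lower under the Myc pool (-0.21) and the Pparg pool (-0.26).

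**Figure D5:**
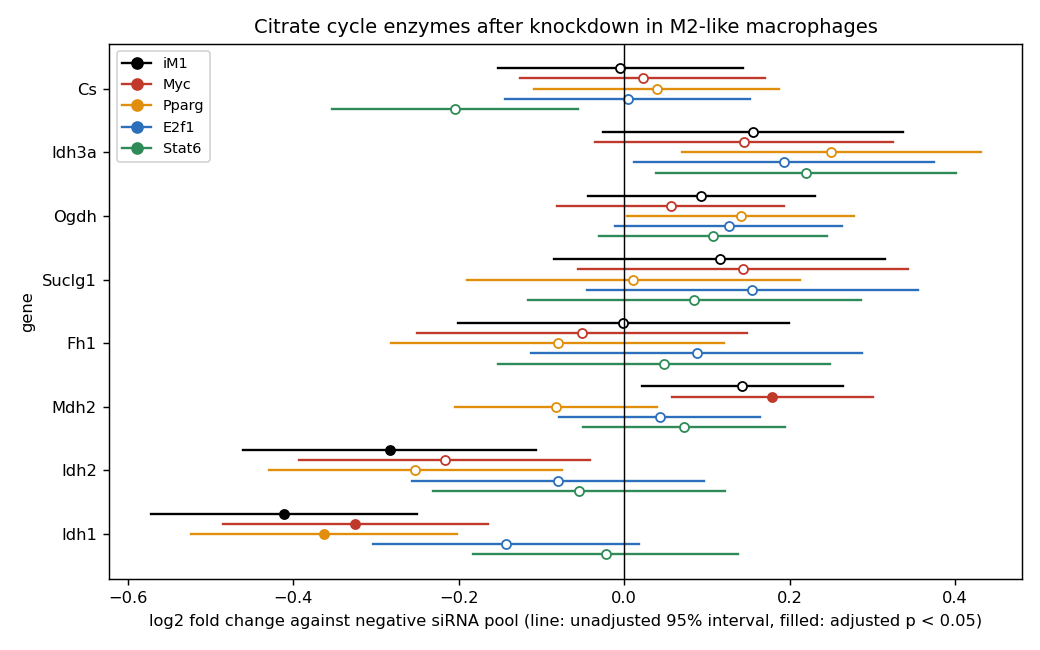
Log2 fold change of the 8 citrate cycle enzymes in iM1 and in the 4 single knockdowns, each against the negative siRNA pool in M2-like macrophages; points are edgeR estimates, lines unadjusted 95% intervals, and filled points passed an adjusted p of 0.05. Idh1 lies between -0.41 and -0.02, and Cs, Idh3a, Ogdh, Suclg1 and Fh1 have open points in all 5 comparisons. The fits shown carried no replicate block, and with it Idh3a passed under the Pparg pool.

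Over the 8 enzymes, 0 rose and 2 fell in iM1, beside 12.5% and 13.9% of all genes. Under the Myc pool 1 rose and 1 fell, beside 13.9% and 15.6%, and under the Pparg pool 0 rose and 1 fell, beside 2.71% and 3.03%. In edgeR or DESeq2, 0 passed under the E2f1 pool (0.261% of all genes rose and 0.649% fell) or the Stat6 pool (0.466% and 1.04%). At an unadjusted p under 0.05 were 1 and 2. These fits carried no block. With the replicate block Mdh2 also passed in iM1, Idh2 under the Myc pool and Idh3a under the Pparg pool. Of the 23 citrate cycle genes, 0 rose and 5 fell in iM1, which were Idh1, Idh2, Idh3g, Suclg2 and Sucla2, with Suclg2 furthest at -0.79; without iM1 replicate 1 the count was 3. Under the Myc pool Idh1, Idh3g (-0.28) and Suclg2 (-0.55) fell, and 1 of them without negative pool replicate 2; the 1 riser, Mdh2, was lost as above. Under the Pparg pool 1 fell, and 0 without negative pool replicate 3. Slc25a13 fell under the Myc pool by 0.54, under the Pparg pool by 0.32 and in iM1 by 0.49, and Slc25a12 rose by 0.31, 0.41 and 0.29. Abcg2, which had risen by 0.94 with the negative pool against mock, fell by 0.79 in iM1. The fibroblast and mesothelium list summed to 134 to 220 CPM in iM1, 129 to 185 under the Myc pool, 133 to 256 under the Pparg pool and 157 to 230 under the negative pool, ranges that overlapped.

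Set beside M1-like mock macrophages, iM1 cells had Acod1 values below theirs, a difference not called in the main fit, and higher levels of 4 enzymes. Acod1 was at 288, 220 and 403 CPM in iM1 and at 411, 481 and 438 CPM in M1-like mock cells; the ranges did not overlap, and the log2 difference was -0.55 (interval -1.18 to 0.09, adjusted p = 0.144). With no filter (-0.54) or with only the compared groups (-0.53) Acod1 was called lower in iM1. Idh1 was 2.68-fold higher in iM1 (log2 1.42 ± 0.08 SE, adjusted p = 1.14e-15). Ogdh was 1.51-fold higher, Idh2 1.26-fold and Fh1 1.24-fold, the last not without M1-like replicate 2 (0.26) or iM1 replicate 3 (0.25). So 4 of 8 enzymes were higher and 0 lower, beside 27.2% and 25.6% of all genes, and Idh3a was called lower without M1-like replicate 1 (-0.25). On the 23-gene list 9 were higher and 2, Sdhd and Dlst, lower; without iM1 replicate 2 the lower count was 1. The macrophage list summed to 11671 to 12616 CPM in iM1 and 6162 to 7160 CPM in M1-like mock cells, and the fibroblast and mesothelium list to 134 to 220 against 11.4 to 24.8 CPM; their part in these differences was not tested.

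Ordered by mean Acod1 in the reprogramming experiment, M1-like untransfected cells (467 ± 50.7 CPM, SD, n = 3) and M1-like mock cells (443 ± 35.3) came first and overlapped. They were followed by iM1 (304 ± 92.4) and the Myc knockdown (241 ± 69.1), which overlapped each other, and then by the Pparg knockdown (68.1 ± 22.9), separate from both its neighbours. Stat6 knockdown (28.6 ± 10.5), negative pool (19.8 ± 3.65), E2f1 knockdown (16.6 ± 2.49) and M0 mock (9.65 ± 9.71) each overlapped the next, as did M0 untransfected (3.72 ± 2.0), M2-like mock (2.52 ± 1.02) and M2-like untransfected (1.57 ± 0.957). Idh1 had a nearly opposite order, from M2-like untransfected (444 ± 20.7 CPM) at the top to M1-like mock (89.6 ± 7.06) and M1-like untransfected (87.4 ± 8.27) at the bottom, with iM1 (240 ± 10.1) next above them.

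On a scale per length, CPM divided by the exon length in kilobases (RPKM), the genes can be set against each other. In M0 cells at 24 h the highest level of the 9 was that of Idh1 (99.8 ± 1.5 RPKM), followed by Ogdh (40.3 ± 0.96) and Mdh2 (30.5 ± 0.61), while Acod1 was at 2.14 ± 0.25. In M1-like cells Acod1 was at 2196 ± 39.5 RPKM, Mdh2 at 47.0 ± 0.24 and Idh1 at 10.4 ± 0.83. Acod1 thus held 0.869% ± 0.10 of the summed level of the 9 genes in M0, 0.783% ± 0.169 in M2-like and 94.0% ± 0.134 in M1-like cells at 24 h. In the reprogramming experiment its share was 51.9% ± 3.65 in M1-like untransfected, 50.4% ± 3.07 in M1-like mock, 32.2% ± 6.43 in iM1, 26.9% ± 5.27 in the Myc knockdown and 9.77% ± 2.76 in the Pparg knockdown. It was 2.77% ± 0.410 under the negative pool and 0.320% ± 0.127 in M2-like mock cells. The summed level of the 8 enzymes was 244 ± 1.39 RPKM in M0 and 139 ± 0.895 in M1-like cells at 24 h.

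The 5 genes most like Acod1 over the 36 reprogramming libraries, by Pearson correlation of log2 CPM among 10129 genes, were Il2rg (0.986), Procr (0.967), Icam1 (0.967), Sav1 (0.962) and Naa25 (0.961). Over the 30 libraries without the M1-like samples their correlations were 0.983, 0.950, 0.949, 0.949 and 0.942. Among the 8 enzymes the coefficient was highest for Mdh2 (0.706) and lowest for Idh1 (-0.805) and Ogdh (-0.788), with Idh2 at -0.716, Fh1 at -0.639, Idh3a at -0.244, Suclg1 at 0.171 and Cs at 0.0139. The libraries share conditions and are not independent, so these coefficients are a description of likeness only.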

How the data were processed

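RNA-seq was deposited as raw counts per gene, which the authors made with Trimmomatic, TopHat and featureCounts on mm10; versions, strand and multimapping settings are not given in the sources used here. The authors name DESeq2 for their own tests. Here, technical runs were summed per mouse, and each experiment was fitted on its own with edgeR 4.0.16 (TMM, filterByExpr with a minimum count of 10 and a minimum total of 15, quasi-likelihood test, one mean per condition, Benjamini-Hochberg adjustment over 16110 or 14172 genes, threshold 0.05) in R 4.3.3. Intervals are unadjusted 95% intervals. RPKM used exon lengths of GENCODE M21. The 24 h numbers name mice, so samples are paired: same-number deviations had a median r of 0.25 over 9 pairs, against -0.14 over 18 others. In the reprogramming experiment every same-number pair correlated above 0.1 in 6 of 16 comparisons (iM1, Myc, Pparg and E2f1 against the negative pool, and mock against untransfected in M1-like and M2-like cells; 0.15 to 0.63), which were taken as paired after the calls were known; fits carried no block. Alternatives were DESeq2 1.42.0, its size factors, no filter, the replicate block, fits of only the compared groups, M2-like mock as reference and leaving out each library. The 9 genes and the lists were chosen with earlier results of these data known. Genes that may be named are the 9, those of 3 fixed lists (citrate cycle, export and linking, itaconate handling), the siRNA targets and the 5 most similar to Acod1 (mean log2 CPM of at least 2). The fits were tested on simulated data. The values of 1 gene of the citrate cycle list are not reported here.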

Additional observations from a re-analysis of the deposited data

Results flagged for a closer look

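Some genes beside the 9 had opposite signs in the polarization and the untransfected reprogramming samples, with every sample of the first group on one side of the second at 24 h and on the other side in the untransfected samples. In M1-like against M0 cells the log2 fold changes at 24 h and in untransfected samples were 2.36 and -1.35 for Pcx. They were 1.41 and -1.91 for Me1, 0.54 and -0.25 for Slc25a1, 0.43 and -0.39 for Slc25a11 (the oxoglutarate carrier), and 0.13 and -0.12 for Sucla2. In M2-like against M0 cells they were -0.32 and 0.25 for Slc25a1. In M1-like against M2-like cells they were 2.87 and -1.30 for Pcx, 1.46 and -2.0 for Me1, and 0.85 and -0.50 for Slc25a1. There they were 0.34 and -0.92 for Slc25a10, the dicarboxylate carrier, and 0.41 and -0.37 for Slc25a11. The difference between the experiments was not tested, and read type, sequencing site and possibly time cannot be told apart.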

How the results depend on the processing

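Of 2530 recomputed values, 2393 were labelled as kept. For single genes this meant the same direction and side of the threshold, or no call in either fit, whatever the sign. For counts it meant equal or within 1.5 times. A changed sign with a call in at least 1 fit occurred 3 times, all with M2-like mock as the reference in place of the negative siRNA pool. These were Ogdh in iM1 (-0.21) and under the Myc pool (-0.25), and Acod1 under the E2f1 pool (2.74). Acod1 under the Stat6 pool became 3.51 with the same reference. With that reference the citrate cycle list had 2 higher and 3 lower in iM1, 2 higher for Myc, and 2 lower each for Pparg, E2f1 and Stat6. Of all 14172 genes with that reference, 2687 were higher and 2567 lower in iM1, and 2808 were higher for Myc. Those called lower numbered 1082 for Pparg, 754 for E2f1 and 755 for Stat6. With no filter, Acod1 was called for M2-like against M0 untransfected (-1.24), mock against untransfected M0 (1.35), Stat6 (0.53) and iM1 against M1-like mock (-0.54). The list then had 0 lower for M2-like against M0 untransfected (0 also with DESeq2's size factors) and 0 higher for Myc. With no filter and also with only the compared groups, it had 1 higher for M1-like against M2-like untransfected, 2 higher for M1-like against M0 mock and 1 lower for iM1 against M1-like mock. Fitting only the compared groups gave 2 higher for Myc, 3 lower for Pparg and 0 higher for M2-like against M0 mock. There Acod1 was -1.94 (adjusted p = 0.241) for M2-like against M0 mock and -0.53 (adjusted p = 0.0123) for iM1 against M1-like mock. DESeq2 gave 2 lower for M2-like against M0 at 24 h and Acod1 at 1.38 (adjusted p = 0.0421) for mock against untransfected M0. With the replicate block, Acod1 was 1.26 (adjusted p = 0.0321) there and -0.59 (adjusted p = 0.04) for iM1 against M1-like mock, and the list had 5 higher for M1-like against M2-like mock and 1 higher each for iM1 and Pparg. It also called Idh3a for M1-like against M0 untransfected (-0.18), the negative pool (-0.22), Pparg (0.25) and iM1 against M1-like mock (-0.17), Suclg1 (0.22) and Mdh2 (0.13) for M1-like against M2-like mock, Mdh2 for iM1 and Idh2 for Myc, and changed no other call of the 9 genes. Over the 36 libraries same-number deviations had a median r of 0.18 over 198 pairs (-0.25 to 0.63), others -0.08, and in 10 of 16 comparisons the samples share only a number. Apart from the 2 Ogdh calls gained with a changed sign, 15 calls of single enzymes were gained and 12 lost under settings other than leaving out a library. Of the lost calls, 6 were lost with no filter and 4 with only the compared groups (Mdh2 in 7 of these 10). Leaving out 1 library in turn, Acod1 ranged from -2.32 to -0.73 for M2-like against M0 mock and from 0.14 to 1.83 for mock against untransfected M0. List counts ranged from 8 to 14 higher and 0 to 1 lower for M2-like against M0 at 24 h, 1 to 3 higher and 0 lower untransfected, and 0 to 1 higher mock. They ranged from 2 to 4 higher for M1-like against M2-like untransfected, 0 to 1 lower for mock against untransfected M0, 1 to 3 lower for the negative pool, 3 to 5 lower for iM1, 0 to 1 higher and 1 to 3 lower for Myc, 0 to 1 lower for Pparg, and 1 to 3 lower for iM1 against M1-like mock. The cause was not tested. Depth limits Acod1 most in M2-like untransfected samples, with 12 to 41 counts a library.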
